A study of Mus musculus with 9 samples.

Results

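Hepa1-6 cells, a mouse hepatocarcinoma line of WT genotype per the labels, were compared after the material named P-Por-Os, given at 25.57 µg/mL without ultrasound, with control cells. The controls received no treatment per the sample labels and PBS per the series description. Each group holds 3 libraries, and neither the time of treatment nor whether the libraries came from separate cultures is given, so the errors below measure the spread between libraries, which may be technical. The members are the 160 genes of the authors' deposited table for this comparison, of 217 distinct genes in all comparisons of the series. The authors chose them on these same 6 libraries: their minimum was a log2 fold of 1, the p before adjustment was to be under 0.05, and each gene is higher after P-Por-Os. All differences below are therefore descriptions of a selected list, with no test of their own, and genes that were lower or that differed by less are not analysed here. The 160 genes are 1.05% of the 15270 genes that the authors tested, and 0.072% (11 genes) reached a log2 fold of 2. By the gene types of GENCODE M21, an annotation of the GRCm38 build, 112 of the 160 are protein-coding. Levels are RPKM, reads scaled to gene length and to the library total, and the totals behind them lay between 35148000 and 37663000 reads.

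Several kinds of gene on the list have well known tasks. Replication-dependent histones are made in S phase to package new DNA, and their mRNAs end in a stem-loop in place of a poly(A) tail. Metallothioneins bind zinc and copper, and the zinc-sensing factor MTF1 switches them on through metal response elements. Involucrin, small proline-rich proteins and late cornified envelope proteins build the tough outer shell of keratinocytes, and are not products for which liver cells are known.

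The promoters of 6 genes are shown, for the histone, metal and epidermal genes on which the description turns. Each is the 250 bases upstream of a RefSeq start in GRCm38.p6, on the gene's own strand. The capitals in the first 3 mark metal response elements, searched as TGCACNC and TGCGCNC. The capitals in the next 2 mark CCAAT boxes, searched as CCAAT, and those in the last mark an AP-1 site, searched as TGANTCA. Both strands were searched, and no match of these motifs overlapped another within the 6 windows.
Mt2, chr8:94172368-94172617, plus strand: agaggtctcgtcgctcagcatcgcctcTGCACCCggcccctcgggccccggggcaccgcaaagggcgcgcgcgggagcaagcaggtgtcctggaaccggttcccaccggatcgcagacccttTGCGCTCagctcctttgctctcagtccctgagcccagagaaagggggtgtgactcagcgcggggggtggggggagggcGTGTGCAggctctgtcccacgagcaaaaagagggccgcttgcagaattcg
Mt1, chr8:94178839-94179088, plus strand: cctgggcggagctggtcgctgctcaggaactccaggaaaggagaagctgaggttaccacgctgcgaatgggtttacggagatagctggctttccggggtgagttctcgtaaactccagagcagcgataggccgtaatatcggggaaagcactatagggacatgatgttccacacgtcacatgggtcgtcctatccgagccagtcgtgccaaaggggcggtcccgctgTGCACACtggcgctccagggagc
Slc30a1, chr1:191906531-191906780, plus strand: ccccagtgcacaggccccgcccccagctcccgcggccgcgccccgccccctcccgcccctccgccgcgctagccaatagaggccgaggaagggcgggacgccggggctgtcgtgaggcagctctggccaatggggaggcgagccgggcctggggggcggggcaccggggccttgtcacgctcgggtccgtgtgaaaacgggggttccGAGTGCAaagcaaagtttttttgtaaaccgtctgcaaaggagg
Hist1h1b, chr13:21780626-21780875, minus strand: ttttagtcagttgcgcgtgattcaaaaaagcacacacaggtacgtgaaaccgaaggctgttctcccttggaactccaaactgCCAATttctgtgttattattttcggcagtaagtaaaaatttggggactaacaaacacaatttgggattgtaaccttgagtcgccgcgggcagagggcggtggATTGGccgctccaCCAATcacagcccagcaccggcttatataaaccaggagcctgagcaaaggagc
Rrm2, chr12:24708004-24708253, plus strand: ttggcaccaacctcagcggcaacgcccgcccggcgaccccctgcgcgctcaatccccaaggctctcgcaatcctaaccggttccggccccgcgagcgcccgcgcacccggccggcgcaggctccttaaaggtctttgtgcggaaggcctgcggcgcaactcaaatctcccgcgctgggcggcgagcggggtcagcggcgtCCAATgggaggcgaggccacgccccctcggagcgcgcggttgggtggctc
Ivl, chr3:92573736-92573985, minus strand: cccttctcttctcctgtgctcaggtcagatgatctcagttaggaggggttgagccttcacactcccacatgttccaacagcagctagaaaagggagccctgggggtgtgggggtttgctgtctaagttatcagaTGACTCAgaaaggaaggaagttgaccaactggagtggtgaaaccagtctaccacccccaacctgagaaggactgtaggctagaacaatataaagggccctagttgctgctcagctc

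The 112 protein-coding genes covered a wide range of levels. These are bulk libraries, in which more cells that express a gene and more of its RNA per cell cannot be told apart. After P-Por-Os, 44 had a mean under 1 RPKM, 36 lay from 1 to under 10, 19 from 10 to under 100 and 13 at 100 or more. Of those 13, each was a histone or 1 of the word-sharing gene models, whose 31-base words recur in the transcripts of other genes; the remaining 83 protein-coding genes split into 44, 30, 9 and 0 over the same ranges, with a median mean of 0.941 RPKM against 0.382 in control. The log2 folds in the authors' deposited table ran from 1.00 to 3.39 over the 112 genes, with a median of 1.24. The members just inside the fold threshold were Capg, an actin-capping protein, at 1.00 and Urb1, a nucleolar protein of ribosome assembly, at 1.01. Genes just outside the threshold are not analysed here. For 111 of the 112 genes the lowest P-Por-Os library lay above the highest control, a count that the selection largely sets. The exception was Lipt2, which attaches lipoic acid to mitochondrial enzymes: it was at 0.903, 0.871 and 0.401 RPKM after P-Por-Os and at 0.128, 0.532 and 0.291 in control. Lipt2 was also the gene with an adjusted p above 0.05, at 0.0701 by the edgeR test in the authors' deposited table.

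**Figure D1:**
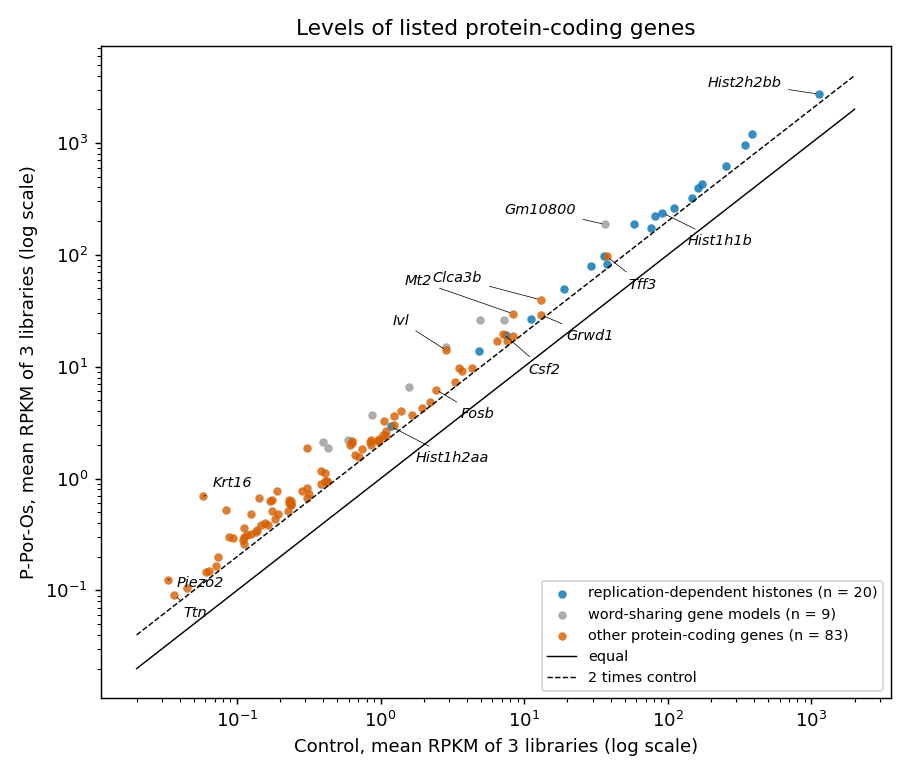
Mean RPKM in control (x axis) and after P-Por-Os (y axis), both on log axes, for the listed protein-coding genes, with n = 3 libraries a group. All points lie above the line of equal levels, as the selection requires, and the histones fill the upper end, up to 2726 RPKM after P-Por-Os.

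Replication-dependent histones were the largest group, with 20 protein-coding members. They came from every class: 2 encode H1 linker histones, 9 H2A, 3 H2B, 3 H3 and 3 H4. H1 proteins sit on the linker DNA and the other classes form the core of the nucleosome. Their log2 folds in the authors' deposited table ran from 1.02 to 1.59 with a median of 1.23, close to the median of 1.24 over all protein-coding members. Levels spanned 2.93 to 2726 RPKM after P-Por-Os and 1.18 to 1137 in control. Of 69 histone genes on a list written for this comparison, 20 (29.0%) were in the table, beside 1.05% of all genes tested. The list was written with earlier results of these data known. Here and below, the share of a list is over its genes in GENCODE M21, whether or not the authors tested them.

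Hist1h1b encodes a linker histone and is not a near copy of another gene: 3.93% of its 31-base words recur elsewhere in the annotated transcripts. It lies on chromosome 13 from 21779883 to 21780625. The P-Por-Os libraries were at 237, 244 and 231 RPKM and the controls at 80.4, 91.3 and 103, for means of 237 ± 6.78 and 91.5 ± 11.2 (SD, n = 3 each). Its log2 fold was 1.26 with an adjusted p of 2.58e-11 by the edgeR test in the authors' deposited table. The other linker histone, Hist1h1a, was at 13.6, 14.2 and 13.2 RPKM after P-Por-Os and at 4.22, 4.69 and 5.54 in control. The groups did not overlap for either linker histone, as in 111 of the 112 protein-coding genes, a count that the selection largely sets.

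Hist2h2bb had the highest level of the table, at 2659.6, 2919.5 and 2599.8 RPKM after P-Por-Os against 932, 1179 and 1299 in control. Among H2A genes, Hist1h2ah was at 1188, 1199.8 and 1246 RPKM against 236, 448 and 481. Hist1h4b, an H4 gene, was at 102, 102 and 88.9 RPKM against 20.7, 38.2 and 49.2. In these core histones the P-Por-Os libraries lay close together while control replicate 1 stood below the other controls. Control replicate 1 was the lowest control for 19 of the 20 histones, beside 110 of all 160 listed genes. The other histones with at least 100 RPKM after P-Por-Os include Hist1h4k at 625 ± 55.3 RPKM against 254 ± 50.9 in control and Hist2h2ac at 961 ± 42.6 against 344 ± 67.2 (SD, n = 3 each). At the low end stood Hist1h2aa, a testis form of H2A, at 3.15, 2.57 and 3.06 RPKM against 1.23, 1.06 and 1.24. Because 15 of the 20 share at least 50% of their 31-base words with other transcripts, how reads divide among the histone copies is uncertain.

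Without control replicate 1, 15 of the 20 histones still met the authors' criterion as evaluated again with limma, beside 88 of all 112 protein-coding genes. The 5 histones that no longer met it kept log2 folds of 0.96 for Hist1h2ap, 0.97 for Hist1h3b, 0.92 for Hist1h2bg, 0.94 for Hist1h2ab and 0.95 for Hist1h2an. Hist1h2ab also missed it without P-Por-Os replicate 2, at 0.97, or control replicate 2, at 0.98, and Hist1h2an without P-Por-Os replicate 3, at 0.95, or control replicate 2, at 0.96. A further histone-named row, Hist1h2aj, is annotated as a pseudogene and stood at 61.5 ± 3.01 RPKM against 23.7 ± 2.82 (SD, n = 3 each). Histone mRNA without a poly(A) tail is read differently by poly(A) selection and by depletion of ribosomal RNA. The labels' protocols name kits of both kinds without saying which libraries each served, so the part of library preparation in the histone levels was not tested.

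Genes that supply or handle new DNA were few beside the histones. Rrm2, the small subunit of ribonucleotide reductase that makes deoxyribonucleotides, was at 16.4, 16.8 and 17.5 RPKM after P-Por-Os and at 6.60, 7.49 and 8.64 in control. Dna2, a helicase and nuclease that trims Okazaki fragments, was at 2.17, 2.09 and 2.14 RPKM against 0.628, 0.908 and 0.992. Hmgn2, which binds nucleosomes and loosens chromatin, was at 16.5, 17.1 and 16.7 RPKM against 5.44, 6.29 and 7.58. Their log2 folds in the authors' deposited table were 1.04, 1.23 and 1.27. Rrm2 did not meet the criterion without control replicate 1, at a log2 fold of 0.95. Of 45 genes on a list for nucleotide supply and replication, Rrm2 was the only one in the table (2.22%). Dna2 is in the table but is not on that list, so the share leaves it out. Of 40 cell cycle regulators 0 were in the table. Both shares are near the 1.05% of all genes tested. For the other genes on these lists no value is given here, which does not show that they were unchanged.

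CCAAT boxes, which the factor NF-Y binds, are marked in 2 of the promoters shown. The Hist1h1b window held 3 and the Rrm2 window held 1. At least 1 was found in 15 of the 18 histone windows that could be matched (83.3%), against 33.8% of 32851 RefSeq promoter windows of the same length, and at least 3 were found in 38.9% against 2.79%. Histone promoters resemble one another, so the windows are not independent, and a match is a description of the letters, not of binding.

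Genes of ribosome production formed a group with small folds and close replicates. Grwd1, a histone-binding protein that takes part in ribosome assembly, was at 29.4, 30.1 and 28.2 RPKM after P-Por-Os and at 11.8, 12.6 and 14.6 in control. Rrp12, needed to mature and export ribosomal subunits, was at 18.1, 19.7 and 18.5 RPKM against 8.02, 7.76 and 9.39. Heatr1, a factor of RNA polymerase I transcription and of rRNA maturation, was at 8.81, 9.34 and 9.04 RPKM against 3.11, 3.53 and 4.37. Urb1 and Taf1c, a subunit of the polymerase I factor SL1, were lower, at 2.38 ± 0.101 RPKM against 1.09 ± 0.123 and at 0.893 ± 0.0375 against 0.382 ± 0.0465 (SD, n = 3 each). The 5 log2 folds in the authors' deposited table ran from 1.01 to 1.19, just above the threshold.

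These small folds make the list sensitive to single controls. Without control replicate 1, Grwd1 stood at a log2 fold of 0.98 and Urb1 at 0.93, and without control replicate 2 Rrp12 stood at 0.99; each then missed the minimum of 1. Urb1 was also below it without P-Por-Os replicate 2 or 3, at 0.99 in both cases. Heatr1 and Taf1c met the criterion without any single library. Of 77 genes listed for ribosome biogenesis, 3 (3.90%) were in the table, beside 1.05% of all genes tested: Grwd1, Rrp12 and Heatr1. A small nucleolar RNA model, Gm23187, also listed, lies within the exons of Nop56, a core protein of box C/D snoRNPs that is not in the table, and had a mean of 43.4 ± 0.287 RPKM against 13.2 ± 1.64, with the SD over 3 libraries each.

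Metal-handling genes made a compact group of 3, all of them on a list of 14 genes of the metal response (21.4%, beside 1.05% of all genes tested). Mt2, a metallothionein on chromosome 8 from 94172664 to 94173568, was at 32.1, 28.6 and 28.3 RPKM after P-Por-Os and at 6.68, 7.80 and 10.7 in control. Mt1, its neighbour 5.51 kb away, was at 9.69, 8.90 and 10.5 RPKM against 3.58, 4.13 and 5.25. Slc30a1, which exports zinc across the plasma membrane, was at 1.25, 1.15 and 1.10 RPKM against 0.380, 0.422 and 0.358. All P-Por-Os libraries of the 3 genes lay above all controls, as in 111 of the 112 protein-coding genes. The log2 folds in the authors' deposited table were 1.71 for Mt2, 1.46 for Slc30a1 and 1.05 for Mt1, with adjusted p-values of 6.33e-09, 9.77e-07 and 8.72e-07 by edgeR. Mt1 missed the criterion without control replicate 1, at 0.93, and without P-Por-Os replicate 3, at 0.99. An antisense model, Gm45774, covers 73.5% of the exonic bases of Mt2 and the strand setting of the counting is not given, so reads of the pair could not be told apart.

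In the promoters shown, the Mt2 window held 3 metal response elements, at 223, 128 and 50 bases before the start. The Mt1 window held 1, at 23 bases, and the Slc30a1 window held 1, at 43 bases. The element was not confined to metal genes: the Rrm2 window also held 1, at 209 bases, left in lower case above. Either form was found in 21.4% of all 32851 windows and in 28.4% of the 95 windows matched to listed protein-coding genes. Among histone windows the share was 33.3%. Matches of 3 or more were found in 1.26% of all windows. The Mt2 window also held an AP-1 match 79 bases before the start, and the Slc30a1 window 2 CCAAT boxes.

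**Figure D2:**
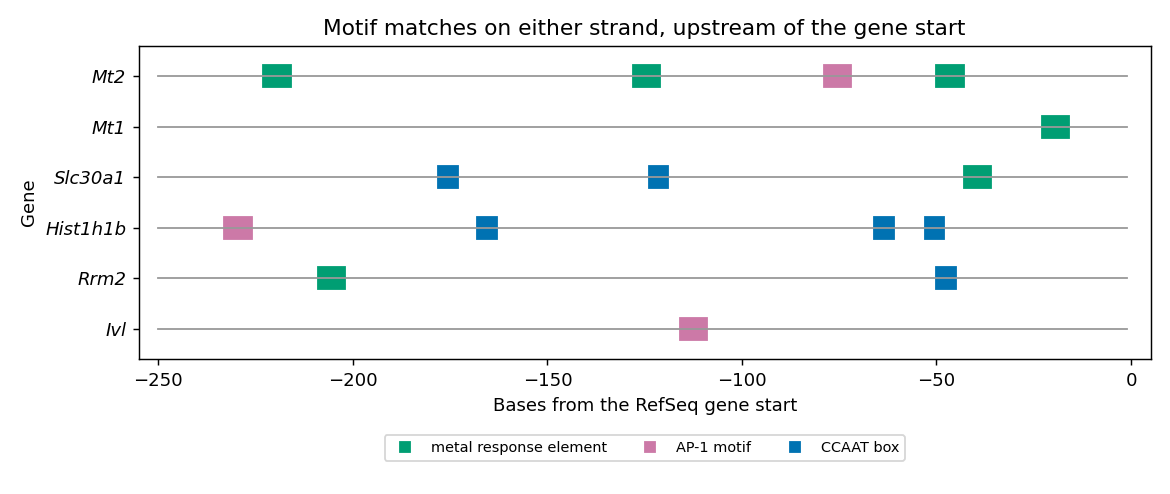
Positions of motif matches in the 250 bases upstream of the RefSeq start of 6 listed genes (x axis, bases from the start), a line for each gene, with the motif kind shown by the marker. The Mt2 line carries 3 metal response elements and the Hist1h1b line 3 CCAAT boxes.

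Genes of epidermal differentiation had the highest median log2 fold of the named roles, 2.15 with a range of 1.43 to 3.39 in the authors' deposited table, while their levels were mostly low. Ivl, on chromosome 3 from 92570902 to 92573735, encodes involucrin and was the most abundant of the 7. It was at 13, 14.8 and 14.1 RPKM after P-Por-Os and at 2.69, 3.04 and 2.90 in control, with the controls close together and far below the treated libraries. Its log2 fold was 2.15 with an adjusted p of 1.31e-10 by edgeR in the authors' deposited table. Sprr1b, a small proline-rich protein that is cross-linked into the cornified envelope, was at 3.72, 3.69 and 3.48 RPKM against 1.09, 1.30 and 1.34. Sprr2e, of the same family, was at 1.27, 2.37 and 2.83 RPKM against 0.657, 0.726 and 0.528. Lce1h, a late cornified envelope protein, was at 2.13, 1.85 and 1.69 RPKM against 0.451, 0.235 and 0.242. Sprr2e varied most among treated libraries, with P-Por-Os replicate 1 lowest. Its groups did not overlap, as in 111 of the 112 protein-coding genes.

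Keratins, the intermediate filaments of epithelia, gave the highest folds from very low counts. Krt16, which epidermis makes in wounds and in rapid growth, stood at 0.698, 0.712 and 0.675 RPKM after P-Por-Os and at 0.0679, 0.0707 and 0.0364 in control, which is 38 to 40 reads per library against 2 to 4. Of its 31-base words, 51.9% recur in other transcripts, so the assignment of these reads is uncertain. Krt76 was at 0.579, 0.422 and 0.577 RPKM against 0.0919, 0.0598 and 0.0984. The calcium-binding protein S100a14, an epithelial S100 protein, was at 0.743, 0.758 and 0.418 RPKM against 0.123, 0.288 and 0.115. Folds on the log2 scale were 3.39 for Krt16, 2.51 for Krt76 and 1.73 for S100a14 in the authors' deposited table.

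All 7 epidermal genes met the criterion without any single library, from log2 folds of at least 1.43. Of all 112 protein-coding genes, 36 missed it without at least 1 library. By the median over the epidermal genes, control replicate 1 did not lie low. Its deviation was 0.06 on the log2 scale, with 0.08 for control replicate 2 and -0.26 for control replicate 3. Control replicate 1 was still the lowest control for Ivl and Sprr1b. It was not the lowest for Sprr2e, Lce1h, Krt16, Krt76 and S100a14, which had lower control levels. Ivl, Lce1h, Sprr1b and Sprr2e lie in the epidermal differentiation complex of chromosome 3, with 189 kb between Ivl and Lce1h, 132 kb between Ivl and Sprr1b and 83.4 kb between Sprr1b and Sprr2e. Of 51 cornified envelope genes on a list, these 4 (7.84%) were in the table, and of 27 keratins, Krt16 and Krt76 (7.41%), beside 1.05% of all genes tested. Of 13 keratinocyte markers, Ivl was in the table (7.69%, beside the same 1.05%). The other 12 keratinocyte markers are not in the table and their levels are not analysed here, so the part of other cells in these levels was not tested.

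The Ivl window held 1 AP-1 match, 116 bases before the start. The Hist1h1b window also held 1, at 233 bases, besides that of Mt2. The AP-1 motif was found in 15.8% of the 95 windows matched to listed protein-coding genes, in 11.1% of the histone windows and in 6.75% of all 32851 windows. Fosb, which encodes a partner in AP-1 dimers, was in the table as the only one of 38 immediate early genes (2.63%, beside 1.05% of all genes tested). Its level was 6.72, 4.95 and 7.05 RPKM after P-Por-Os and 2.28, 2.50 and 2.48 in control, with P-Por-Os replicate 2 the lowest of the treated libraries. A motif match describes the letters, not binding, and a link between Fosb and the other listed genes was not tested.

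**Figure D3:**
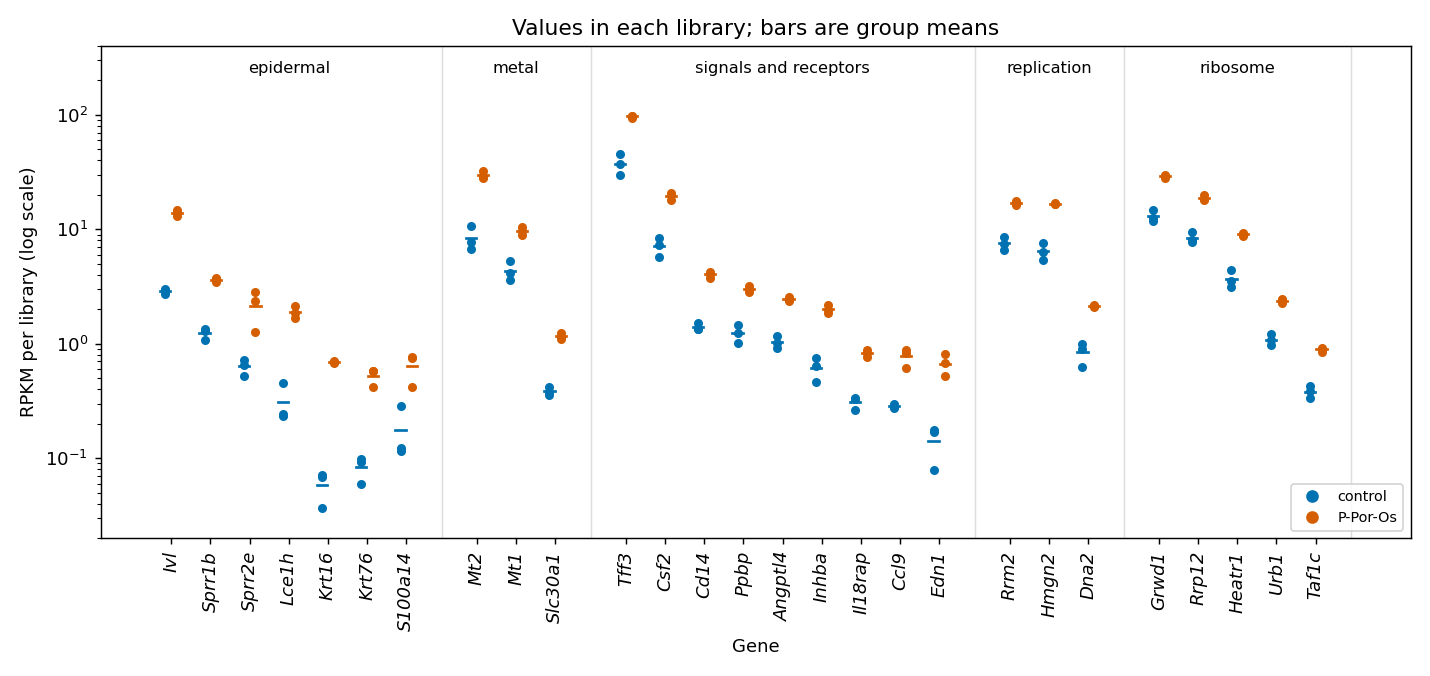
RPKM in each library (y axis, log scale) for named genes (x axis) grouped by role, with control and P-Por-Os libraries as points and bars at the group means. The groups do not overlap for any gene drawn, as in 111 of the 112 listed protein-coding genes. Tff3 stands highest, at 94.5 to 98.3 RPKM after P-Por-Os.

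Secreted signals came next, with 13 genes that include ligands and the receptors of immune cells. Tff3, a trefoil peptide that mucous epithelia secrete to protect their surface, was the most abundant protein-coding gene outside the histones and word-sharing models, at 94.5, 98.3 and 98.1 RPKM after P-Por-Os and 29.5, 37.3 and 45.8 in control. Csf2, which encodes the cytokine GM-CSF, was at 18.1, 20.0 and 20.7 RPKM against 5.77, 7.36 and 8.36. Inhba, the subunit of activin A, was at 1.96, 2.18 and 1.85 RPKM against 0.644, 0.461 and 0.747. Edn1, the vasoconstrictor endothelin, was at 0.524, 0.808 and 0.676 RPKM against 0.0793, 0.177 and 0.170. In Tff3, Csf2 and Inhba the spread among treated libraries was narrow beside the gap to the controls, a gap that the selection favours. In Edn1 the treated libraries lay further apart beside that gap. Log2 folds in the authors' deposited table were 1.26 for Tff3, 1.34 for Csf2, 1.57 for Inhba and 2.12 for Edn1. An antisense model, Gm12223, overlaps 12% of the exonic bases of Csf2 and kept a ratio of 0.636 to it, with a coefficient of variation of 4.74% over the 6 libraries.

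Other ligands were lower. Angptl4, which inhibits lipoprotein lipase, was at 2.44, 2.55 and 2.37 RPKM after P-Por-Os and at 1.02, 0.909 and 1.18 in control, and was the only one in the table of 23 genes listed as PPAR targets or for fatty acid oxidation (4.35%, beside 1.05% of all genes tested). Ppbp, a platelet chemokine precursor, was at 2.99 ± 0.17 RPKM against 1.25 ± 0.225 (SD, n = 3 each). Ccl9, a macrophage chemokine, was at 0.834, 0.613 and 0.876 RPKM against 0.296, 0.272 and 0.280. Slit1, an axon guidance ligand, was at 0.180, 0.146 and 0.174 RPKM against 0.0404, 0.0934 and 0.0817, and without control replicate 1 its log2 fold was 0.81, below the criterion.

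The receptors were Cd14, Il18rap, C3ar1 and G6b. Cd14, a co-receptor for bacterial lipopolysaccharide, was at 4.07, 4.25 and 3.76 RPKM after P-Por-Os and at 1.52, 1.34 and 1.34 in control. Il18rap, a chain of the interleukin-18 receptor, was at 0.760, 0.837 and 0.881 RPKM against 0.263, 0.328 and 0.333, and C3ar1, the receptor of complement fragment C3a, at 0.254, 0.259 and 0.329 against 0.136, 0.0771 and 0.119. G6b missed the criterion without P-Por-Os replicate 2, at 0.97, or control replicate 1, at 0.89. Cd14 is also a macrophage marker: it was the only one of 17 on that list in the table (5.88%, beside 1.05% of all genes tested), and 0 of 12 endothelial and 0 of 14 fibroblast markers were in it. Of 40 genes on a list of cytokines, chemokines and innate sensors, 3 (7.50%) were in the table, beside 1.05% of all genes tested: Edn1, Cd14 and Csf2. That list counts the vasoconstrictor Edn1 and leaves out the chemokine genes Ccl9 and Ppbp, so its share depends on how it was written. None of 25 interferon response genes was in it, which is near the 1.05% of all genes tested.

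Channels and transporters of small molecules numbered 6, with log2 folds from 1.09 to 1.83 in the authors' deposited table. Clca3b, of the calcium-activated chloride channel accessory family, was at 38.3, 40.0 and 40.2 RPKM after P-Por-Os and at 10.7, 13.6 and 15.1 in control. Clca3a1, which lies 61.6 kb from it on chromosome 3, was at 3.44, 3.02 and 3.43 RPKM against 0.844, 1.10 and 1.23. Slc20a1, a sodium-phosphate cotransporter, was at 1.82, 1.85 and 2.29 RPKM against 0.799, 0.837 and 0.933. The 2 Clca genes are 28.6% of the 7 family members on a list, beside 1.05% of all genes tested. Slc20a1 missed the criterion without P-Por-Os replicate 3, at a log2 fold of 0.98. Piezo2, a mechanically gated ion channel, was much lower, at 0.109, 0.107 and 0.158 RPKM against 0.0237, 0.0361 and 0.0391. Slc17a6, a vesicular glutamate transporter, was at 0.470, 0.485 and 0.489 RPKM against 0.0885, 0.159 and 0.126.

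Lipid and ester enzymes were Pla2g4c, a cytosolic phospholipase, the carboxylesterases Ces2g and Ces2e, and Lipt2. Pla2g4c was at 0.656, 0.929 and 0.756 RPKM after P-Por-Os and at 0.156, 0.214 and 0.197 in control. Ces2e was at 2.07, 2.09 and 2.35 RPKM against 0.836, 0.922 and 1.12, and Ces2g, 27.0 kb away, at 0.596, 0.662 and 0.630 against 0.178, 0.170 and 0.159. The fold was larger in the scarcer of the neighbouring carboxylesterases, 1.76 for Ces2g and 1.06 for Ces2e on the log2 scale in the authors' deposited table; the difference was not tested. Without control replicate 1, Ces2e stood at 0.97 and Lipt2 at 0.70. Lipt2 also missed the criterion without P-Por-Os replicate 1, at 0.89, or 2, at 0.92. None of 33 cholesterol and fatty acid synthesis genes was in the table, which is near the 1.05% of all genes tested.

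The largest group after the histones by number was the 14 genes of the cytoskeleton, motors and cilia, at low levels: only Capg had a mean of at least 1 RPKM over the 6 libraries. Capg was at 4.90, 4.60 and 4.87 RPKM after P-Por-Os and at 1.78, 2.45 and 2.37 in control, and missed the criterion without P-Por-Os replicate 1 or 3 or control replicate 1, with a lowest value of 0.87. Kif5a, a neuronal kinesin heavy chain, was at 0.364, 0.291 and 0.242 RPKM against 0.0589, 0.101 and 0.104, with a log2 fold of 1.65 in the authors' deposited table. Ttn, the giant spring protein of striated muscle, was at 0.0900, 0.0925 and 0.0909 RPKM against 0.0327, 0.0398 and 0.0370. Its low level still rested on 385 reads in P-Por-Os replicate 1 and 144 in control replicate 1. The others, such as Jph3, Avil and the axonemal dynein Dnah10, had log2 folds from 1.02 to 1.32. Of the 14 genes, 8 missed the criterion without at least 1 library. Besides Capg they were Afap1l2 and Bfsp1 without P-Por-Os replicate 2, at 0.99 and 0.93, and Bfsp1 also without control replicate 2, at 0.95. Kif1a missed it without P-Por-Os replicate 1, at 0.99, and with Snph without control replicate 1, at 0.90 and 0.92. Dnah10 missed it without P-Por-Os replicate 3, at 0.96. Ccdc65 missed it without P-Por-Os replicate 1, at 0.88, or control replicate 3, at 0.93. Ccdc64b missed it without either of these, at 0.91 in both cases, or P-Por-Os replicate 3, at 0.995.

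Among 6 transcription factors, Zfp428 was the most abundant with 6.51, 8.45 and 7.03 RPKM after P-Por-Os and 2.56, 3.70 and 3.63 in control, and Fosb was next. The other 4, Myrfl, Glis1, Zfp979 and Barhl1, had means under 1 RPKM. Glis1, Barhl1 and Zfp428 missed the criterion without control replicate 1, at log2 folds of 0.78, 0.82 and 0.88, and Zfp428 also without P-Por-Os replicate 2, at 0.92. Zfp979 missed it without control replicate 2, at 0.97.

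Adhesion, matrix and protease genes numbered 7. Of these, Serpinb2, the inhibitor of urokinase, was at 2.51, 3.04 and 2.50 RPKM against 0.972, 0.918 and 1.38, and Nrcam, a neuronal cell adhesion molecule, at 2.01, 2.27 and 2.30 against 0.732, 0.864 and 0.964. Nectin4, an epithelial adhesion molecule, was at 0.510, 0.446 and 0.571 RPKM against 0.156, 0.192 and 0.182. The other 4 of these genes were Col6a5, a chain of collagen VI, Arsj, an arylsulfatase, B3galt6, which builds the linker of proteoglycan chains, and Mmp15, a membrane-bound metalloproteinase, with log2 folds from 1.03 to 1.52 in the authors' deposited table. Mmp15 missed the criterion without P-Por-Os replicate 1, at 0.96, or control replicate 1, at 0.83.

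Of 6 trafficking genes, Atg9b, a membrane protein of autophagy, had the highest log2 fold, 1.60 in the authors' deposited table, at 2.27, 1.84 and 2.17 RPKM against 0.457, 0.813 and 0.642. Serp2, Ap5b1 and Sdcbp2 of this group missed the criterion without control replicate 1, at 0.66, 0.64 and 0.87. Serp2 also missed it without P-Por-Os replicate 3, at 0.93, and Ap5b1 without P-Por-Os replicate 1, at 0.96, or 3, at 0.94. Exoc3l2 missed it without control replicate 2, at 0.86. Of the 9 genes placed in no role, the most abundant was Gm10282, at 9.82, 9.39 and 9.75 RPKM against 2.54, 3.31 and 4.65. Of the words of Gm10282, 83.6% recur in Hmgn2, and 29.8% of the words of Hmgn2 recur elsewhere. The split of reads between them is therefore uncertain.

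**Figure D4:**
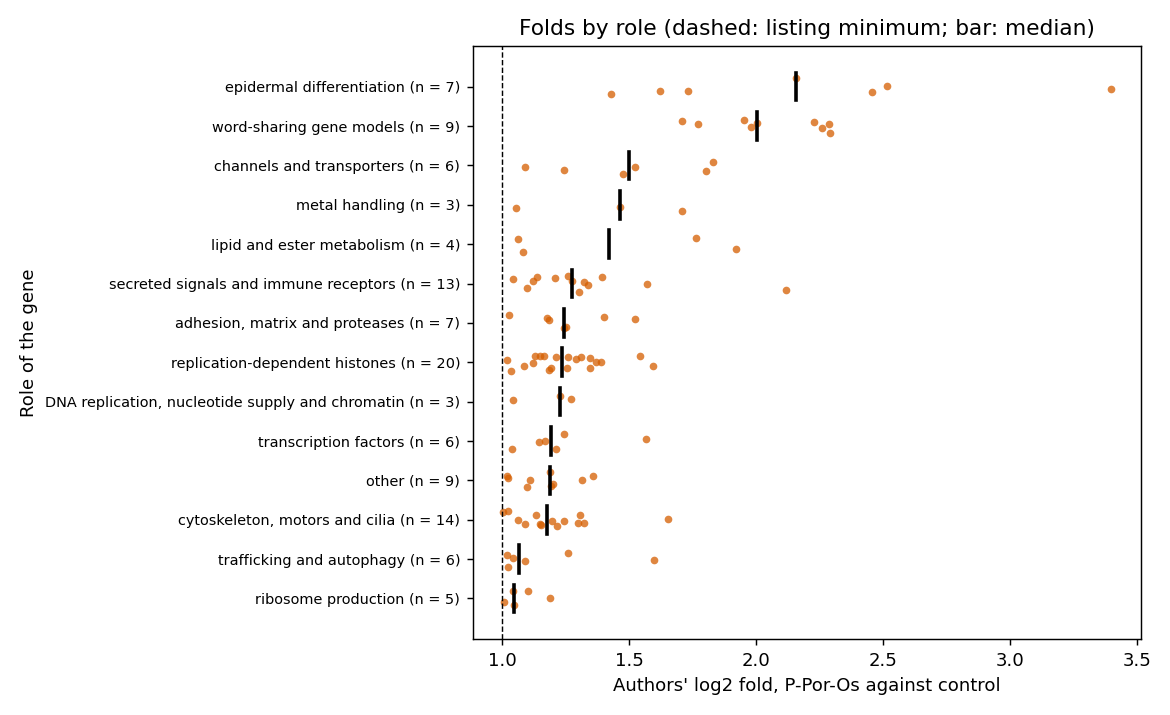
Log2 fold in the authors' deposited table (x axis) for each listed protein-coding gene as a point, by role (y axis), with a bar at each median and a dashed line at the listing minimum of 1. The epidermal genes reach 3.39 and have the highest median, 2.15, while the 5 ribosome production genes lie between 1.01 and 1.19.

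A further 9 protein-coding models had log2 folds from 1.71 to 2.29 with a median of 2.00 in the authors' deposited table. They lie on chromosomes 2, 9 and 14, and 36.2 to 89.3% of their words recur in other transcripts, so their reads cannot be assigned to a single model. Gm10800, on chromosome 2 from 98666547 to 98667301, was at 185, 189.9 and 185 RPKM after P-Por-Os and at 30.6, 41.3 and 38.3 in control. Gm10718, on chromosome 9, was at 25.9, 27.1 and 25.7 RPKM against 4.41, 5.85 and 4.55. Of the 10 protein-coding genes that reached a log2 fold of 2, 5 were models of this kind and the others were Krt16, Krt76, Lce1h, Ivl and Edn1. The reads of Krt16 are also of uncertain assignment, as given above, and 47.7% of the words of Lce1h recur in other transcripts.

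Of 24 gene lists, 13 had a member in the table and 11 had none; together they placed 41 of the 160 genes. The lists with 0 members in the table held 28 antioxidant and ferroptosis genes, 24 of the unfolded protein and heat shock response, 32 p53 targets and apoptosis genes, 27 of glycolysis and hypoxia, 22 of cytochrome P450 and xenobiotic response and 33 hepatocyte and hepatoma markers, besides those named above. Of all genes tested 1.05% are in the table, so 0 members in lists of these sizes is near that share. For genes outside the table no values are given, so the hepatocarcinoma label could not be checked against its markers, and absence from the table does not show that a gene was unchanged.

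Over the listed genes the control libraries lay further apart than the treated ones. Control replicate 1 was the lowest control for 110 of the 160 genes, control replicate 2 for 33 and control replicate 3 for 17. Over the 160 genes the median deviation from the group mean of log2 RPKM was -0.22 in control replicate 1, 0.07 in replicate 2 and 0.21 in replicate 3, while the treated libraries lay between -0.01 and 0.02. The histones showed the same order with -0.34, 0.10 and 0.24. Without control replicate 1, 88 of the 112 protein-coding genes met the criterion as evaluated again with limma, against 111 with all libraries, and the 24 that did not had log2 folds from 0.64 to 0.98. Leaving out any other library left between 100 and 109, and 36 of the 112 missed the criterion without at least 1 library.

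**Figure D5:**
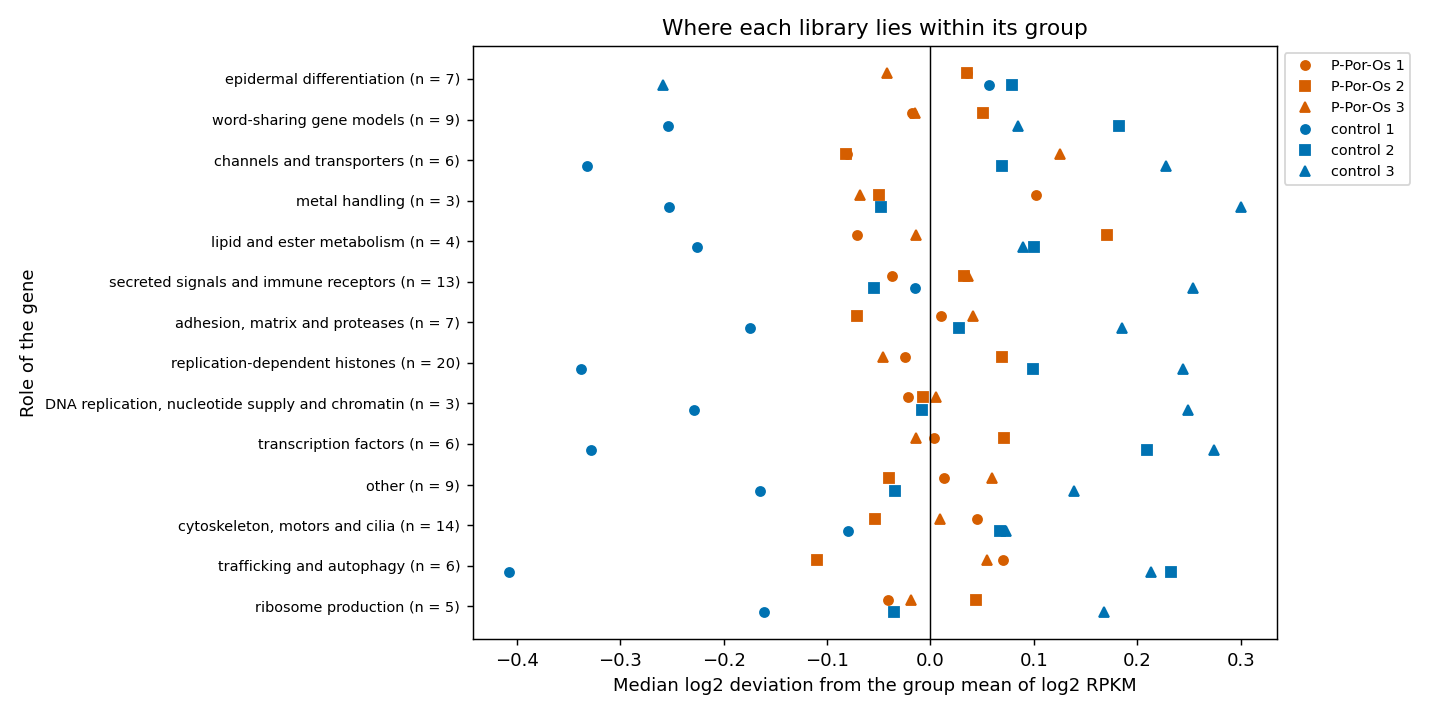
Median log2 deviation of each library from its group mean of log2 RPKM (x axis) by role (y axis), with symbols for replicates and colours for groups. Control replicate 1 lies lowest in most roles, at -0.34 for the histones, but at 0.06 for the epidermal genes.

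With ultrasound added to the same dose of P-Por-Os, values are deposited for some of these genes, and that comparison shares the control libraries. Mt2 was at 141 ± 5.78 RPKM with ultrasound, beside 29.7 ± 2.15 without it and 8.41 ± 2.10 in control (SD, n = 3 each). Mt1 was at 20.2 ± 1.68 RPKM, beside 9.69 ± 0.792 and 4.32 ± 0.852. Both were also listed for P-Por-Os with ultrasound against P-Por-Os alone, with log2 folds of 2.33 and 1.13 in the authors' deposited table. Slc30a1 was at 1.43 ± 0.0631 RPKM with ultrasound beside 1.17 ± 0.0758 without, Fosb at 8.33 ± 1.33 beside 6.24 ± 1.13, Clca3b at 29.6 ± 3.64 beside 39.5 ± 1.05 and Cd14 at 3.44 ± 0.156 beside 4.03 ± 0.246 (SD, n = 3 each). These 4 genes are not among the 27 that the authors listed for P-Por-Os with ultrasound against P-Por-Os alone. That list holds only genes chosen as higher with ultrasound. The differences of these 4 genes were given no further test here.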

How the data were processed

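RNA-seq libraries of Hepa1-6 cells were paired-end and stranded, per the labels' protocols. The submitters' processing notes name GRCm38, edgeR 3.12.1, fastp 0.23.4, featureCounts and Subread 1.5.1. An aligner, an annotation and a strand setting were not given in the sources used here. The authors deposited RPKM per library, their log2 folds and log2 CPM, an F score per gene, and p-values with adjusted values, per the file headers, for selected genes only.

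The number of genes tested was read from the ratio of p to adjusted p. Library totals were those at which RPKM times GENCODE M21 exonic length gave whole reads: 88.4 to 92.1% of values under 400 reads were whole within 0.05, against medians of 9.24 to 9.78% at other totals. Such reads state depth only. Of 160 symbols, 153 matched once, 2 by an older symbol, 1 more than once and 4 not. RefSeq promoters matched 87 of the 112 protein-coding genes, 20 by an older symbol.

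limma 3.58.1 in R 4.3.3 with a trend was run on log2(RPKM + 1) for the 101 genes whose mean reached 1 RPKM, with Benjamini-Hochberg adjustment: 70 (69.3%) had an adjusted p under 0.05 and a log2 difference of at least 1. These genes were chosen on the same libraries, so the p-values are too small and the count supports nothing. To leave out a library, the criterion was computed anew from limma on log2(RPKM): p before adjustment under 0.05, and a log2 ratio of group means that reached 1 once shifted by -0.12, the median difference from the authors' folds. No set test was run. The fit was tested on simulated data.

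Members and gene lists were chosen with earlier results of these data known. List shares are over the list genes found in GENCODE M21, while 1.05% is over the genes that the authors tested, so the sets differ. Named genes are the protein-coding genes among the 10 highest by log2 fold, by level after P-Por-Os or lowest by p, and those on a list; the rest, and the roles, were chosen after their values were seen. RefSeq sequences and starts are from GRCm38.p6.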

Additional observations from a re-analysis of the deposited data

How the results depend on the processing

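The 160 listed genes became 11 at a log2 fold of at least 2, 73 under Bonferroni adjustment over the genes tested and 101 at a mean of at least 1 RPKM. The 112 protein-coding genes became 10, 55 and 66 under the same settings, and the 41 members of the gene lists became 5 at the higher fold and 25 under Bonferroni adjustment. The 70 genes that passed limma became 3 at a log2 difference of at least 2 and 45 among protein-coding genes only, which has fewer genes by construction, and 101 with a pseudocount of 0.1 or with no fold minimum. Leaving out each library in turn gave 120 to 157 listed genes, 88 to 109 protein-coding genes, 33 to 41 list members and 65 to 74 genes passing limma; the lowest values of all 4 were without control replicate 1. With the replicate block the counts were 158, 111, 41 and 70. Same-numbered libraries correlated at 0.00, 0.16 and -0.02, so the numbers were not taken as pairs. Among settings chosen after seeing the data, limma in place of the authors' test gave 158 and 111, counting models with overlapping exons once gave 138 listed genes, and leaving out word-sharing models gave 103 protein-coding genes. Of 50 alternative counts, 40 were within 1.5 times of the main one. For 46 named genes, all 406 alternative differences kept their direction, a result that the selection of genes as higher on these libraries largely sets. Of the 406, 390 kept their side of an adjusted limma p under 0.05 with a log2 difference of at least 1. Of the rest, 8 fell below it when a library was left out, to between 0.914 and 0.998 on the log2(RPKM + 1) scale, for Mt1, Rrm2, Clca3a1, Sprr1b, Fosb and Gm11168, and 8 rose above it, 7 of them with a pseudocount of 0.1. Causes were not tested. Depth limits the scarcest genes: the controls of Krt16 rest on 2 to 4 reads.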

Other observations

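The 48 rows that are not protein-coding by a match to the annotation include 12 miRNA models, 9 antisense RNAs and 9 lincRNAs. Most of the miRNA models repeat the histones: 9 lie opposite listed histone genes, and the ratio of each to its histone had a coefficient of variation of 0.700 to 2.58% over the 6 libraries. A further model, Gm44486, lies opposite Hist1h2ag, which is not in the table, with 329.6 ± 19.8 RPKM in the treated libraries and 148 ± 22.2 in the controls (SD, n = 3 each). The antisense RNA 4930558J22Rik overlaps 56.2% of the exonic bases of Hist1h4b and kept a ratio to it with a coefficient of variation of 0.170%, and Gm20628 overlaps all exonic bases of Hist2h2bb with 0.369%. The unplaced model RP23-98C9.5 kept a ratio of 0.221 to Mt2 with a coefficient of variation of 1.11%. Which member of each pair gave rise to the reads cannot be told apart with the strand setting not given. Mir150, a miRNA of lymphocytes, was at 30.9 ± 4.26 RPKM against 12.5 ± 3.91 (SD, n = 3 each); libraries of this kind do not measure mature miRNAs.

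Among the 83 protein-coding genes that are neither histones nor word-sharing models, 11 pairs, made of 19 genes, lay within 200 kb of each other. The closest were Sdcbp2 and Snph, 0.543 kb apart on chromosome 2, then Mt1 and Mt2, and then Exoc3l2 and Nkpd1, 21.1 kb apart on chromosome 7. Rrp12 and Slit1 lay 119 kb apart on chromosome 19, and Crocc2 and Kif1a 66.8 kb apart on chromosome 1. No test of this number was made.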
